A study of Mus musculus with 22 samples.

Results

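The genes described here code for the subunits of the proteasome and for its activators, inhibitor and assembly chaperones. They were taken from the deposited count table as the symbols that begin with Psma, Psmb, Psmc, Psmd, Psme, Psmf or Psmg, with Psmb8, Psmb9 and pseudogene symbols containing -ps left out. Of 21881 symbols in the table, 47 met this rule. In the embryos 46 of the 47 had enough counts to be tested, and in the cell lines 46 of the 47. Psmb11, a beta subunit known from the thymus, was the gene left untested in both. Psmc3ip codes for a meiotic recombination protein and met the rule by its symbol alone.

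The libraries cover 8 single mouse embryos of embryonic day 3.5 and 7 stem cell lines, the lines with 14 libraries in all. The embryos were 1 female and 1 male wild type for Nanog, 1 female and 1 male heterozygous, and 2 females (F1, F2) and 2 males (M1, M2) in which Nanog is knocked out (null). The lines were 2 ES lines (female F1, male M2), 3 TS lines (females F1 and F2, male M3) and 2 XEN lines (males M1 and M2), all wild type for Nanog. ES, TS and XEN cells are the stem cell lines of the epiblast, the trophectoderm and the primitive endoderm. Each line gave 2 libraries, r1 and r2, from different passages. The sample titles call them technical replicates, so the replicate is the line. The labels call the ES lines serum free, so lineage and culture medium cannot be told apart. Both XEN lines are male. The sources used here do not give the strain, the nature of the knockout allele or whether embryos were littermates. Embryo libraries came from amplified cDNA and line libraries did not, so levels were compared only among embryos or only among lines.

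The proteasome degrades proteins tagged with ubiquitin. Its 20S core is a stack of rings of alpha (Psma) and beta (Psmb) subunits, and the beta subunits Psmb5, Psmb6 and Psmb7 carry the cutting sites. The 19S cap that feeds the core has a base of ATPases (Psmc) with non-ATPase subunits (Psmd1, Psmd2, Psmd4). Its lid is made of Psmd3, Psmd6, Psmd7, Psmd8, Psmd11, Psmd12, Psmd13 and Psmd14. Psmd5, Psmd9 and Psmd10 code for assembly chaperones of the base. Other caps can open the core instead, namely PA28 (Psme1 and Psme2, or Psme3) and PA200 (Psme4). In cells that meet interferon, Psmb8, Psmb9 and Psmb10 replace the standard cutting subunits to form the immunoproteasome. In mammals the transcription factor Nfe2l1 is known to raise subunit genes together when proteasome activity falls.

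Total counts ran from 8201801 to 32231620 per library. Levels below are normalized CPM, that is, a gene's share of a library's counts scaled by edgeR's trimmed mean of M values (TMM). Nanog stood at 0.33 to 0.60 in the 4 null embryos and at 50.1 to 130 in the 4 embryos that carry it. Summed over fixed marker lists, ES markers reached 4951 to 5944 in ES libraries and at most 845 in other lines. TS markers reached 3053 to 10169 in TS libraries and at most 1323 in other lines. XEN markers reached 3715 to 4695 in XEN libraries and at most 56.4 in other lines. Fibroblast markers summed to 204 in TS F2_r1 and to 0.192 to 67.7 in the other line libraries. Null embryos F1, F2, M1 and M2 lacked 570, 300, 133 and 809 genes that the remaining embryos expressed, against 40 to 68 in embryos with Nanog. A gene was counted as lacking at 3 counts or fewer where the other embryos averaged at least 5 CPM.

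One line library stood apart for the proteasome genes themselves. In XEN M2, 41 of the 47 genes were higher in library r2 than in r1, with a median log2 difference of 0.57, while the median over all genes tested was -0.06. The same median lay between -0.13 and 0.22 in the other 6 lines. ES F1 also had 42 of 47 genes higher in r2, but by a median of 0.22. Summed over the 47 genes, XEN M2_r2 stood at 10203 CPM and its partner M2_r1 at 6716. Tests that rest on XEN lines and the sum over the 47 genes are therefore also given without that library where a call or the size changed.

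**Figure D1:**
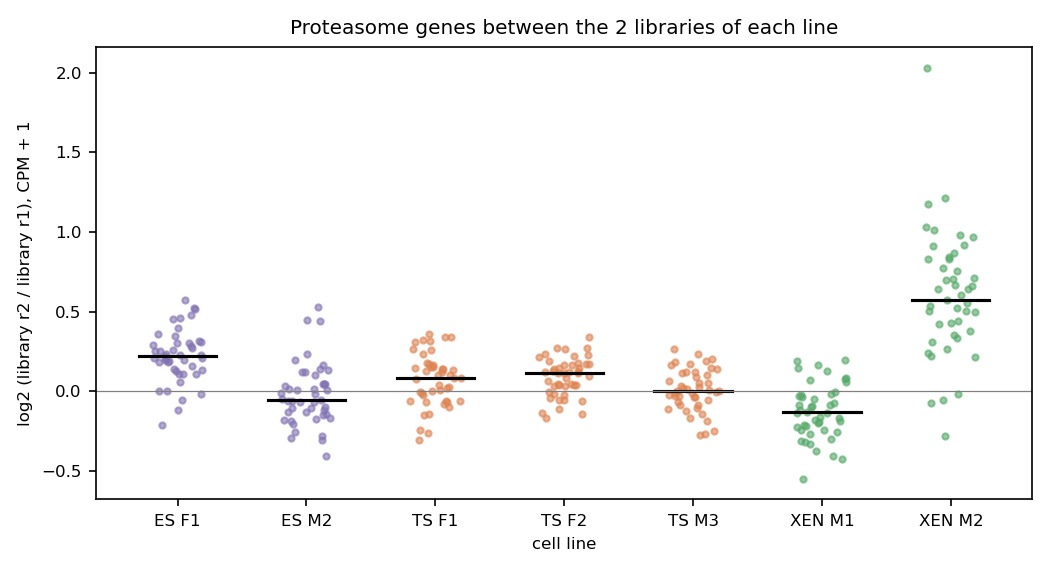
Each point is 1 proteasome gene, plotted by the log2 ratio of library r2 to library r1 of the same line (y axis, CPM plus a pseudocount of 1), with lines along the x axis and a dash at the median. Psma8 and Psmb11 are not drawn. The XEN M2 points centre on 0.57, above those of the other 6 lines.

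Across the lines, the summed level was 5982 ± 97.6 CPM in ES (SD, n = 2 lines), 7081 ± 875 in TS (n = 3) and 7346 ± 1575 in XEN (n = 2). The libraries of the lineages overlapped, at 5553 to 6550 in ES, 6154 to 8121 in TS and 5914 to 10203 in XEN. With XEN M2_r2 left out the XEN mean was 6474 ± 343, below that of TS. Single genes differed more than the sum did. By edgeR's quasi-likelihood test with Benjamini-Hochberg adjustment over all genes, 8 of 46 proteasome genes differed between ES and TS lines, where 41.3% of all 14687 genes tested did. Of the 8, 2 were higher in ES and 6 lower, against 20% and 21.3% of all genes. Between ES and XEN lines 8 of 46 differed, against 45.1% of all genes, with 3 higher in ES and 5 lower (23.4% and 21.8%). Between TS and XEN lines 7 of 46 differed, against 36.7%, with 3 higher in TS and 4 lower (20.3% and 16.4%). In this fit, the share called among proteasome genes was thus below the share among all genes in each comparison. The log2 fold change was above 0 for 8 of 46 genes in ES against TS (49.1% of all genes), 11 in ES against XEN (51.4%) and 28 in TS against XEN (50.9%). Its median over the 46 was -0.27 for ES against TS (all genes -0.02), -0.23 for ES against XEN (0.05) and 0.06 for TS against XEN (0.02). Without XEN M2_r2 the latter medians were -0.07 and 0.21, and without line XEN M2 that of ES against XEN was 0.04. That of TS against XEN was -0.03 without TS M3, -0.13 without XEN M1 and -0.04 from library 2 of each line alone. The 3 comparisons share lines. All libraries of the first lineage lay above all of the second for 3, 4 and 5 genes in that order (25.1%, 30% and 21.7% of all genes) and below for 17, 8 and 3 (25.5%, 26% and 16.9%).

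**Figure D2:**
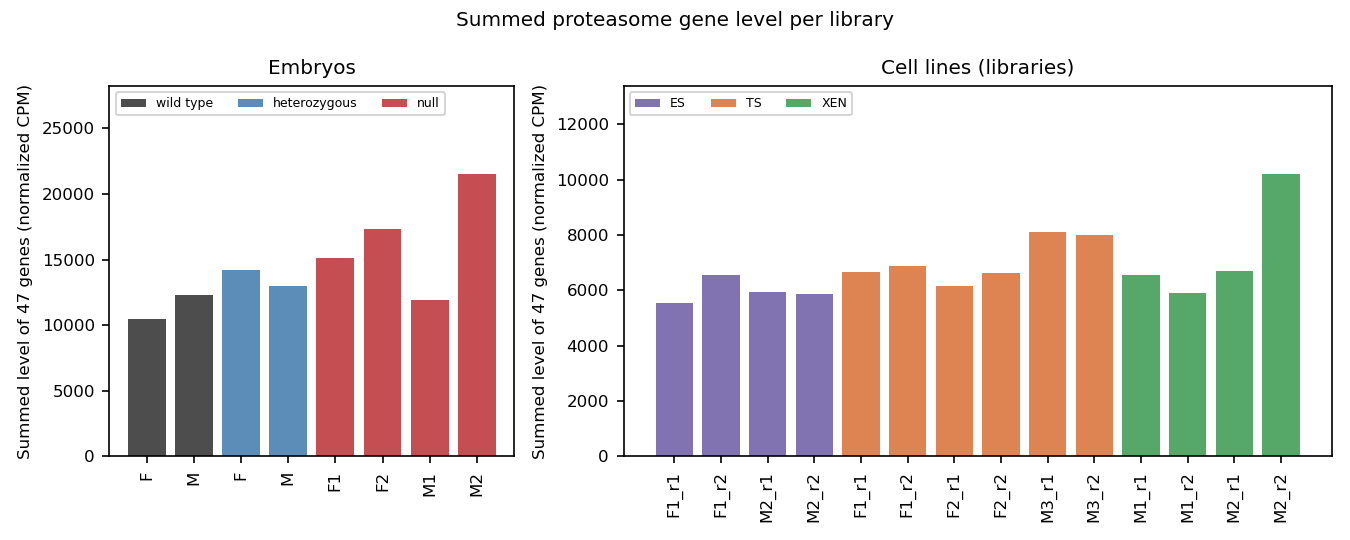
Bars give the summed level of the 47 genes in each library (y axis, normalized CPM, from 0), with embryos on the left and line libraries on the right, coloured by group. XEN M2_r2 stands at 10203 against 5914 to 6716 in the other XEN libraries, and null embryos span 11903 to 21505.

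These calls rest on few lines. Where a lineage is left with 1 line, that line is assumed to vary like the others. Shares of all genes called in the same refits are not set beside the counts below. The counts thus do not compare proteasome genes with genes at large. In the ES against TS comparison, 1 gene passed without ES line F1, 3 without ES line M2, 4 without TS line F1 and 5 without TS line F2. In ES against XEN, 1 passed without ES F1, 2 without ES M2 and 2 without XEN M2. In TS against XEN, 4 passed without either ES line or without TS F1. With library XEN M2_r2 left out, the TS against XEN calls went from 3 higher and 4 lower to 6 higher and 0 lower, and the ES against XEN calls from 3 higher and 5 lower to 3 and 3. Without that library the ES against TS calls rose from 8 to 11, with Psmb10, Psme3 and the beta gene Psmb3 (log2 -0.68, SE 0.20, edgeR adjusted p = 0.0325) added. In TS against XEN it added Psmb10, Psmb6 and the lid gene Psmd12 (log2 0.54, SE 0.16, edgeR adjusted p = 0.0338). Scaling by DESeq2's size factors in place of TMM gave 3 higher and 2 lower for TS against XEN, and so did sex as a further term. From library 1 of each line alone, the calls of Psmd9 (both comparisons), Psmd6 (both), Psmd3 (against XEN), Psmc6 and Psmd2 (TS against XEN) were lost. From library 2 alone, those of Psmb6, Psmd8, Psmd3, Psmd9, Psmd5, Psmd2 and Psmc1 were lost in each comparison that had them.

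**Figure D3:**
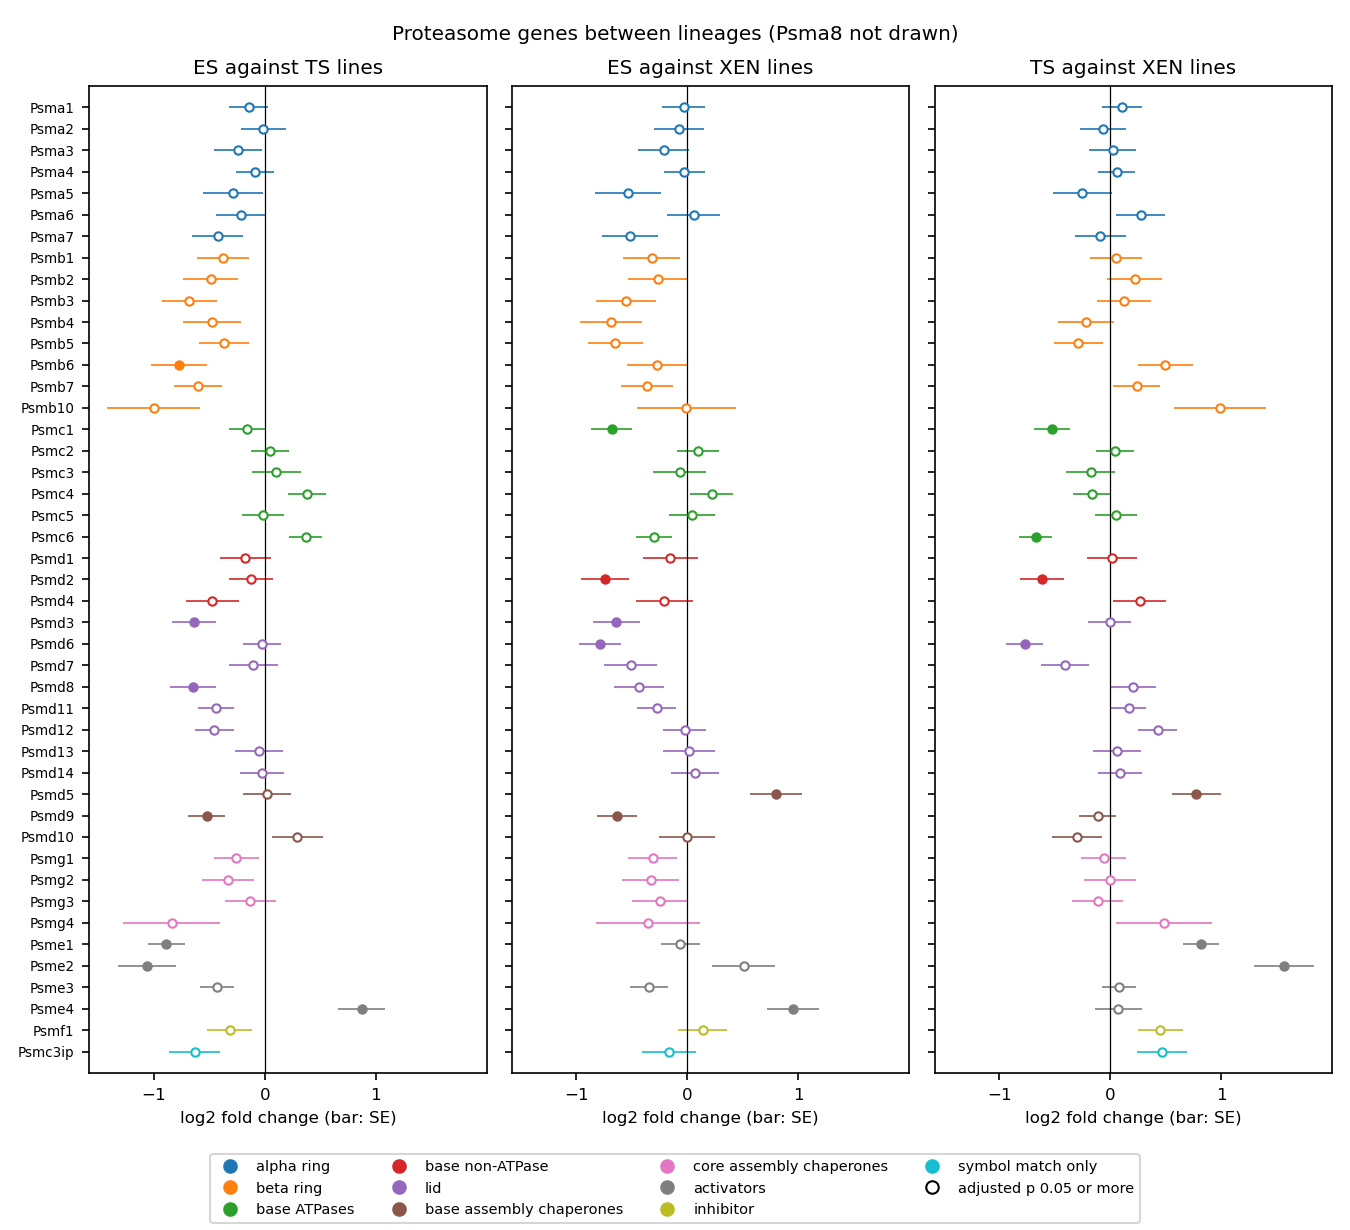
Each row is 1 tested proteasome gene and each panel 1 comparison of lines, with the log2 fold change on the x axis, its SE as a bar, colours for subcomplexes and filled points for an adjusted p under 0.05. Psma8 lies off the scale. Psme1 and Psme2 are lower in ES than TS and higher in TS than XEN, and Psme4 is higher in ES than in either.

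Among the caps that bind the core in place of the 19S particle, 3 of 4 genes were called in ES against TS. In ES against XEN 1 was called and in TS against XEN 2. The shares among all genes were 41.3%, 45.1% and 36.7%. Psme1 and Psme2, which code for the subunits of interferon-inducible PA28, were highest in TS lines, and Psme4, which codes for PA200, was highest in ES lines. Psme1 measured 48.0 and 44.2 CPM in ES F1, 45.7 and 62.7 in ES M2, and 62.3, 46.7, 46.8 and 58.2 in the 4 XEN libraries. The 6 TS libraries lay at 75.7, 93.7 and 104 (lowest, median, highest), above every ES and XEN library. The difference was 1.85-fold between ES and TS (log2 -0.89, SE 0.16, edgeR adjusted p = 0.00546) and 1.77-fold between TS and XEN (log2 0.82, SE 0.16, edgeR adjusted p = 0.00736).

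Psme2 was at 25.3, 28.9, 26.0 and 35.7 CPM in the ES libraries and at 19.8, 13.2, 25.2 and 24.1 in the XEN libraries. In TS its lowest, median and highest values were 45.0, 58.8 and 74.7, again with no overlap. It was 2.09-fold lower in ES than TS (log2 -1.06, SE 0.26, edgeR adjusted p = 0.0168) and 2.96-fold higher in TS than XEN (log2 1.57, SE 0.27, edgeR adjusted p = 0.00406). Without ES line F1 the ES against TS calls of Psme1 (edgeR adjusted p = 0.0743) and Psme2 (0.127) were lost, and without ES M2 that of Psme2 (0.0803). Between TS and XEN both genes passed in all 17 alternatives run. Some 66.2% of the 31-base words of the Psme2 transcript also occur in transcripts of Psme2b, and 22.1% of those of Psme1 in other genes' transcripts, so their reads may be split.

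Psme4 ran the other way. It stood at 348 and 344 CPM in ES F1 and at 249 and 294 in ES M2, above the 6 TS libraries (129, 161 and 228 as lowest, median and highest) and the XEN libraries (149, 157, 175 and 144). ES exceeded TS 1.83-fold (log2 0.87, SE 0.21, edgeR adjusted p = 0.0150) and XEN 1.93-fold (log2 0.95, SE 0.24, edgeR adjusted p = 0.0144). Both calls were lost without ES line F1 (edgeR adjusted p = 0.138 and 0.106), and that against XEN also without XEN M1 (0.0678) or XEN M2 (0.0563). The fourth activator, Psme3, which codes for a nuclear form of PA28, was not called in any of the 3 comparisons with all libraries, at 199 ± 7.40 CPM in ES, 268 ± 5.47 in TS and 252 ± 41.2 in XEN. With XEN M2_r2 left out of the fit, ES against TS passed (log2 -0.43, SE 0.14, edgeR adjusted p = 0.0482, against 0.0609 with it).

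The immunoproteasome core gene among the members, Psmb10, was low in ES, with 9.19, 9.21, 11.6 and 12.8 CPM in the 4 libraries, and lay between 13.8 and 25.8 in TS. In XEN it stood at 5.83, 6.81 and 6.39 in 3 libraries and at 29.2 in M2_r2. Its TS against XEN difference (log2 0.99, SE 0.42, edgeR adjusted p = 0.10) did not pass with that library. With the library left out, the difference passed (log2 1.74, edgeR adjusted p = 0.00529). So did ES against TS (log2 -1.0, edgeR adjusted p = 0.0342, against 0.0899 with the library). Most other settings did not give these calls. Of 17 alternatives run, ES against TS passed in 4 (log2 -1.22 to -0.82 over the 17) and TS against XEN in 5 (0.33 to 1.83). Neither passed with DESeq2's size factors, sex as a term, no filter on low counts or library 2 of each line alone. Psmb8 and Psmb9, the partner genes outside the set, were at 22.5 to 39.8 and 10.3 to 13.0 CPM in TS libraries. Psmb8 was at most 0.192 and Psmb9 at most 0.99 in ES and XEN libraries, M2_r2 included. Markers of myeloid and blood cells, which are known to express these genes, were summed over a list of 9. They reached 210 to 886 CPM in TS, 371 to 680 in ES and 10.5 to 25.8 in XEN. Within TS, line F2 stood at 886 and 688, and lines F1 and M3 at 210 to 322, below every ES library. All 9 had counts in TS and in XEN, while Ptprc, Tyrobp and Lyz2 had none in ES. Fibroblast markers summed to 9.81 to 204 in TS, 4.82 to 6.53 in ES and 0.192 to 12.6 in XEN. Their part in these differences was not tested.

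**Figure D4:**
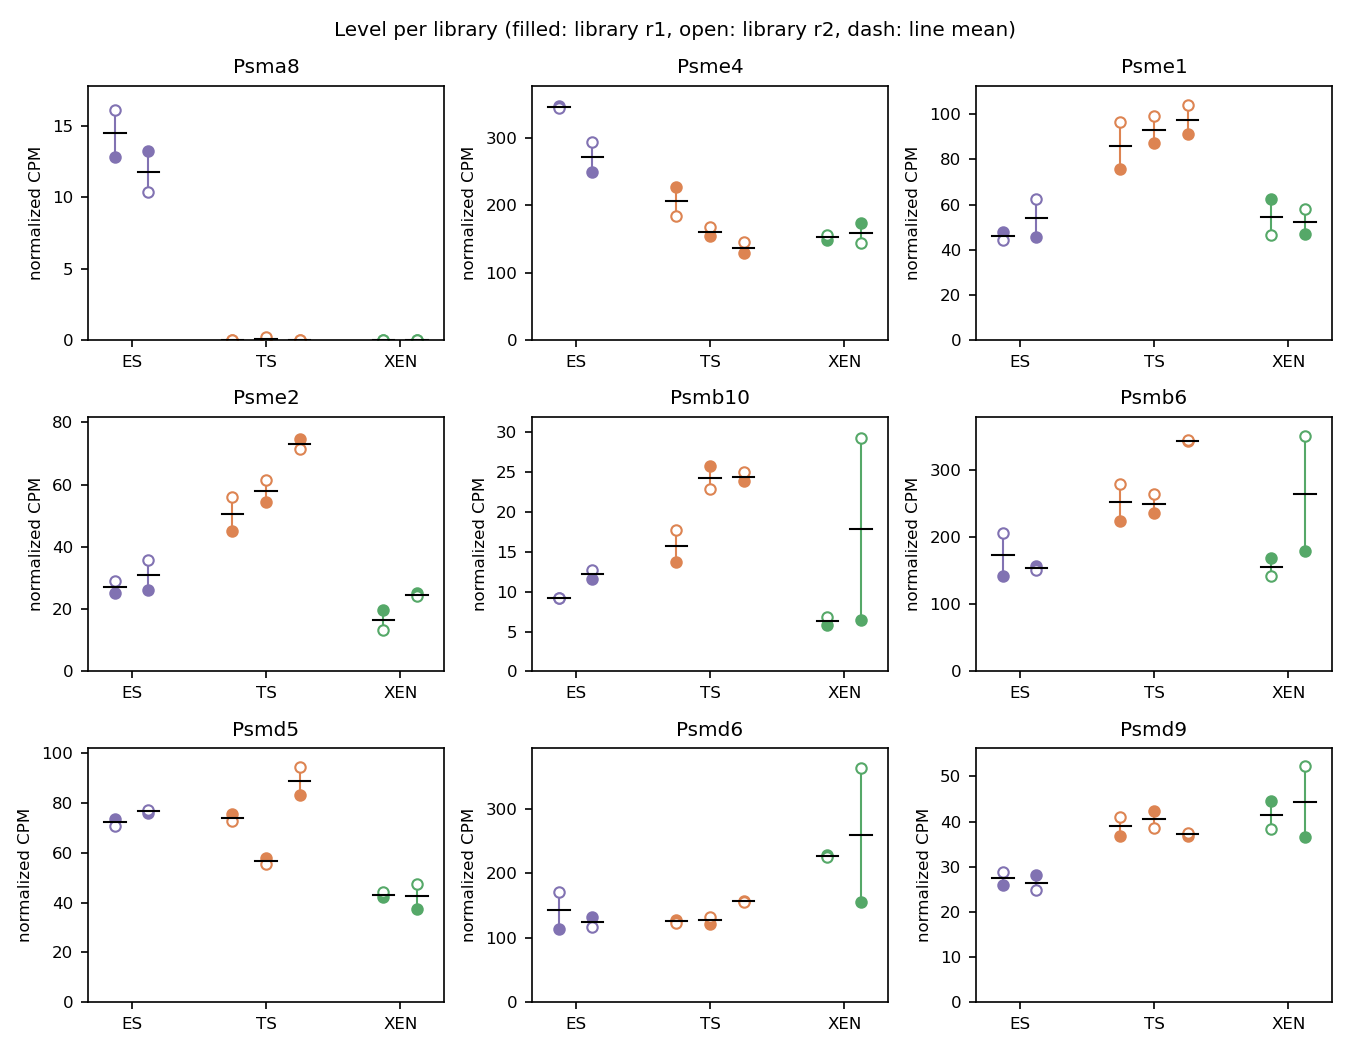
Normalized CPM (y axis, from 0) of 9 proteasome genes in ES, TS and XEN lines, with filled circles for library r1, open circles for r2 and a dash for the line mean. TS lines lie above the others for Psme1 and Psme2, ES lines for Psma8 and Psme4, and XEN M2_r2 lies far from its partner for Psmb10, Psmb6 and Psmd6.

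Within the core rings, Psma8, the alpha subunit of the testis form that takes the place of Psma7, was measured at more than 1 CPM in the ES lines and in no other line. It had 518 counts over the 4 ES libraries, at 12.8, 16.1, 13.3 and 10.3 CPM, 3 counts over the 6 TS libraries and 0 over the 4 XEN libraries. The ES level was 367 times that of TS (95% interval by the exact binomial method 125 to 1785, counting error only) and at least 332-fold higher than XEN, taking 3 counts over the XEN group as the limit. Both differences passed edgeR's test (adjusted p = 0.00190 and 0.00188) and did so in all 17 alternatives run. Psma8 and Psma7 share 0 of the 31-base words of Psma8, and Psma7 itself, at 125 to 154 CPM in ES, was not called between lineages. Per kilobase of transcript Psma8 reached 7.76 CPM in ES, against a median of 92.1 over the 8 alpha genes.

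Few of the standard core genes were called. No alpha gene other than Psma8 was called in any line comparison. All 8 tested beta genes had a log2 fold change below 0 in ES against TS, with a median of -0.55. All ES libraries lay below all TS libraries for 6 of the 8, against 25.5% of all genes, and 1 gene was called. That gene was Psmb6, which carries the caspase-like cutting site, at 143, 206, 157 and 152 CPM in ES libraries and 225, 272 and 344 (lowest, median, highest) in TS (log2 -0.78, SE 0.25, edgeR adjusted p = 0.0425). The call was lost without any 1 of the 5 ES and TS lines (edgeR adjusted p = 0.0564 to 0.216). Against XEN its log2 fold change from ES was -0.28 (SE 0.27) and its XEN M2_r2 value was 351 against 143 to 179 in the other XEN libraries. TS against XEN was not called with that library (log2 0.50, SE 0.25, edgeR adjusted p = 0.157) and was called without it (log2 0.77, SE 0.20, edgeR adjusted p = 0.0220). The other cutting genes were not called: Psmb5 (chymotrypsin-like) stood at 144 ± 7.44 CPM in ES, 186 ± 49.7 in TS and 236 ± 14.2 in XEN, and Psmb7 (trypsin-like) at 192 ± 7.20, 292 ± 65.8 and 254 ± 33.6. Of the 31-base words of Psmb5, 74.0% recur in other genes' transcripts, chiefly the gene model Gm3375.

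In the 19S base, 0 of 6 ATPase genes were called in ES against TS, 1 in ES against XEN and 2 in TS against XEN. Among all genes the shares were 41.3%, 45.1% and 36.7%. The genes called were Psmc1 and Psmc6, each higher in XEN. Psmc1 stood at 138 ± 1.21 CPM in ES (SD, n = 2), 155 ± 9.65 in TS (n = 3) and 228 ± 40.7 in XEN (n = 2). XEN exceeded ES 1.60-fold (log2 ES against XEN -0.68, SE 0.18, edgeR adjusted p = 0.0189) and TS 1.44-fold (log2 -0.52, SE 0.16, edgeR adjusted p = 0.0409). Its libraries did not overlap, at 174 to 295 in XEN against 120 to 168 in ES and TS. Psmc6 was at 211 ± 7.08 in XEN and 130 ± 4.04 in TS (log2 TS against XEN -0.67, SE 0.15, edgeR adjusted p = 0.0109). Without XEN M2_r2 the TS against XEN calls of Psmc6 (log2 -0.51, edgeR adjusted p = 0.0697) and Psmc1 (-0.42, 0.0582) were lost, while Psmc1 still passed for ES against XEN (-0.58, 0.0230). The ES against XEN call of Psmc1 was lost without either ES line (edgeR adjusted p = 0.107 and 0.114) or XEN M2 (0.0895), its TS against XEN call without any line but XEN M1 (0.0504 to 0.212), with sex as a term (0.0953) or with DESeq2's size factors (0.0589), and the Psmc6 call without XEN M1 (0.0607).

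Psmd2, a base scaffold that binds ubiquitin-like domains, measured 416, 381, 516 and 695 CPM in the XEN libraries, above 272 to 316 in ES and 279 to 379 in TS. ES was 1.67-fold below XEN (log2 -0.74, SE 0.22, edgeR adjusted p = 0.0275) and TS 1.53-fold below XEN (log2 -0.62, SE 0.20, edgeR adjusted p = 0.0436). Without XEN M2_r2 the first held (log2 -0.63, edgeR adjusted p = 0.0286) and the second did not (-0.50, 0.0517). The first was lost without either ES line (edgeR adjusted p = 0.122 and 0.139) or XEN M2 (0.135). The second was lost without any line but TS M3 and XEN M1 (0.0824 to 0.263) and with DESeq2's size factors (0.0587). With sex as a term, fitted because both XEN lines are male, both were lost (0.0718 and 0.142). Psmd4, a ubiquitin receptor of the base, was not called, at 166 ± 3.28 CPM in ES, 231 ± 52.0 in TS and 196 ± 52.9 in XEN.

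In the lid, 2 of 8 genes were called in ES against TS, 2 in ES against XEN and 1 in TS against XEN. Among all genes the shares were 41.3%, 45.1% and 36.7%. Psmd3 was lower in ES than in the other lineages, at 208, 243, 239 and 230 CPM in ES libraries, 339 to 408 in TS and 280 to 499 in XEN, with no overlap. Its log2 fold change was -0.64 against TS (SE 0.20, edgeR adjusted p = 0.0359) and -0.64 against XEN (SE 0.21, 0.0417). The first was lost without any 1 of the 5 ES and TS lines (edgeR adjusted p = 0.0545 to 0.195), the second without either ES line, TS F1, TS F2 or XEN M2 (0.0619 to 0.209), with sex as a term (0.0967) and with DESeq2's size factors (0.0565). Psmd8 was 1.56-fold lower in ES than TS (log2 -0.65, SE 0.21, edgeR adjusted p = 0.0402), but not without ES F1, ES M2, TS F1, XEN M1 or XEN M2 (0.0516 to 0.199). Psmd6 was higher in XEN than in ES (log2 -0.79, SE 0.19, edgeR adjusted p = 0.0120) and TS (log2 -0.77, SE 0.17, edgeR adjusted p = 0.0107), but its XEN libraries, at 229, 225, 156 and 363, overlapped both. Without XEN M2_r2 both Psmd6 calls were lost (log2 -0.51 and -0.49, edgeR adjusted p = 0.118 and 0.112), and that against ES also without ES F1 (0.0551) or ES M2 (0.101). Psmd14, the deubiquitinase of the lid, was not called and stood at 124 ± 3.52 CPM in ES, 126 ± 25.1 in TS and 123 ± 19.2 in XEN. Psmd11, another lid subunit, was not called either, at 97.9 ± 3.43 in ES, 134 ± 13.8 in TS and 121 ± 13.1 in XEN.

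The assembly chaperones of the base did not move together. Psmd5 was lowest in XEN, with 42.2, 44.1, 37.5 and 47.5 CPM in the 4 libraries against 70.7 to 77.0 in ES and 55.6 to 94.2 in TS. ES exceeded XEN 1.74-fold (log2 0.80, SE 0.24, edgeR adjusted p = 0.0283) and TS exceeded XEN 1.72-fold (log2 0.78, SE 0.22, edgeR adjusted p = 0.0287). Both calls held without XEN M2_r2 (edgeR adjusted p = 0.0235 and 0.0242) and were lost without line XEN M1 (0.0846 and 0.0972), XEN M2 (0.111 and 0.121), ES F1 (0.103 and 0.0607) or ES M2 (0.132 and 0.0609), and the second also without TS F1 (0.0619) and by limma voom (0.0650). Psmd9 was lowest in ES, at 24.9 to 28.8 CPM against 36.8 to 42.4 in TS and 36.5 to 52.2 in XEN (log2 -0.52 against TS, SE 0.17, edgeR adjusted p = 0.0410; log2 -0.64 against XEN, SE 0.18, 0.0249). The first was lost without any line but TS M3 (edgeR adjusted p = 0.0536 to 0.214), with sex as a term (0.0622) and with no filter on low counts (0.0618), the second without any ES or XEN line or TS F2 (0.0536 to 0.144) and without library XEN M2_r2 (0.0577). Psmd10, also a base chaperone, was not called, and neither was any of Psmg1 to Psmg4, the chaperones of the core, which summed to 124 ± 0.492 CPM in ES, 154 ± 9.62 in TS and 157 ± 52.2 in XEN. The core inhibitor Psmf1 stood at 43.8 ± 1.14, 54.9 ± 10.8 and 40.0 ± 2.31 CPM and was not called.

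Levels of different genes can be compared per kilobase of transcript. On this scale most of the 31 constitutive subunits of core, base and lid lay within 2-fold of their median. In ES, 29 of the 31 did (median 106 CPM per kilobase), in TS 25 (median 115) and in XEN 28 (median 144). The XEN values per kilobase include library M2_r2 and were not worked out without it. The ratio of highest to lowest was 5.18 in ES, 8.63 in TS and 6.71 in XEN. In wild-type embryos 23 of 31 were within 2-fold of a median of 222. Those embryos ranged from Psmd3 at 47.7 to Psma7 at 561, a ratio of 11.8. The embryo values come from amplified cDNA scaled apart from the lines, so they cannot be compared with the line values. Psmb6 was the highest in ES at 206 ± 17.6 and in TS at 353 ± 67.1, and Psmb4 in XEN at 295 ± 90.8. The lowest, Psma3 in ES at 39.8 and Psma2 in TS and XEN at 40.9 and 44.0, have long transcript models of 2846 and 2911 bases, which lower their values on this scale. Assembly chaperones of the base had medians of 15.5 to 16.9 and the inhibitor 10.5 to 14.4 in the lines, below the subunits of the particle. The lengths are those of GENCODE M21, since the sources used here do not name the authors' transcript models.

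Promoter sequence was matched for 39 of the 47 genes from RefSeq (build GRCm38.p6), as the 250 bases before the gene's start. A fixed set of short motifs was searched on both strands. The ETS motif CCGGAAG was found in 13 of 39 (33.3%), against 14.4% of 10140 genes tested in the lines and 7.83% of all 27025 genes with a promoter. The antioxidant response core TGACNNNGC, the class of site bound by Nfe2l1 and Nfe2l2, was found in 5 (12.8%), against 14.2% of tested genes. The CCAAT box was found in 14 (35.9%, against 40.8%) and the TATAAA box in 3 (7.69%, against 8.05%). These are matches of letters only. The 5 promoters below belong to genes whose lineage or embryo values are described here and were chosen after those values were seen. Psme1 and Psme2 were both highest in TS and lie close together on chromosome 14. Capitals mark matches of the searched motifs.
Psme1, chr14:55578244-55578493, plus strand: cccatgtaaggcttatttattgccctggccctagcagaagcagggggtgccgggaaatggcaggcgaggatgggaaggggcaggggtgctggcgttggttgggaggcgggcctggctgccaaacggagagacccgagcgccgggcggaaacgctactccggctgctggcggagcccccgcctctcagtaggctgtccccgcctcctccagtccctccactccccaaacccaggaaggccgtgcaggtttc
Psme2, chr14:55591102-55591351, minus strand: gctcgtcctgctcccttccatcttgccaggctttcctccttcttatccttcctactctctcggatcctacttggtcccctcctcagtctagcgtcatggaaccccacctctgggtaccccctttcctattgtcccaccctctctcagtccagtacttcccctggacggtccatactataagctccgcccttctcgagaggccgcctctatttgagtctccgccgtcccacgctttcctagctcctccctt
Psme4, chr11:30771525-30771774, plus strand: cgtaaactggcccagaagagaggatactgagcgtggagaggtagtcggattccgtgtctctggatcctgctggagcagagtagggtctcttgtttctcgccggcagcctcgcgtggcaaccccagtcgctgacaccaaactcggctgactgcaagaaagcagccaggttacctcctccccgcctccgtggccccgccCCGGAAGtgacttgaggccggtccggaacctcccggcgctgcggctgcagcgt
Psmd5, chr2:34870963-34871212, minus strand: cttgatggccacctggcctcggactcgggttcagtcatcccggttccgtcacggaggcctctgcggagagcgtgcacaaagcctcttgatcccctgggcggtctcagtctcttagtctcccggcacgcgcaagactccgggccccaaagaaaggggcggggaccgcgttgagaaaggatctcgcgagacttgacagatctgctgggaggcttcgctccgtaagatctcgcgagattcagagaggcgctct
Psmc6, chr14:45329574-45329823, plus strand: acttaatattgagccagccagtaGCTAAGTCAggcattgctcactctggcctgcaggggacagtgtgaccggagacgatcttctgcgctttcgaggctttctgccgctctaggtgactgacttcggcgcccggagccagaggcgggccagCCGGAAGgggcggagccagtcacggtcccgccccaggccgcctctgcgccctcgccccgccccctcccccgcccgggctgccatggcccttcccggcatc
The windows of Psme1, Psme2 and Psmd5 hold no match of the 4 motifs. That of Psme4 has the ETS motif starting at -53 from the start of the gene. That of Psmc6 has it at -100 and the antioxidant response core at -227, on the strand opposite to the spelling above.

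Other genes of the ubiquitin pathway, taken from a list of 31 measured genes, gave 8 calls of 31 between ES and TS (2 higher in ES, 6 lower), 11 between ES and XEN (3 higher, 8 lower) and 9 between TS and XEN (4 higher, 5 lower). These shares were below the 41.3%, 45.1% and 36.7% of all genes called in the same comparisons. Without XEN M2_r2 the 11 calls between ES and XEN all held, and 8 of the 9 between TS and XEN did. Ubqln4 and Uba1, a ubiquitin shuttle and the main ubiquitin-activating enzyme, were higher in ES than TS (log2 1.11, SE 0.15, and 0.92, SE 0.20, edgeR adjusted p = 0.00162 and 0.0101). AI314180, the mouse gene for the proteasome adaptor Ecm29, was lower in ES than TS (log2 -1.49, SE 0.22, edgeR adjusted p = 0.00243). The shuttle Ubqln2 measured 531 ± 87.0 CPM in XEN, 82.7 ± 32.8 in ES and 58.6 ± 9.67 in TS, and was 9.20-fold lower in TS than XEN (log2 -3.20, SE 0.28, edgeR adjusted p = 0.000256). Ngly1, the enzyme that strips sugars from Nfe2l1, was 3.38-fold lower in ES than XEN (log2 -1.76, SE 0.30, edgeR adjusted p = 0.00317). Nfe2l1 itself was at 235 ± 2.45 CPM in ES, 381 ± 69.7 in TS and 442 ± 34.6 in XEN. It was lower in ES than in TS (log2 -0.69, SE 0.19, edgeR adjusted p = 0.0256) and XEN (log2 -0.95, SE 0.21, edgeR adjusted p = 0.00888).

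In the embryos, no proteasome gene passed the adjusted threshold for null against the embryos that carry Nanog (wild type and heterozygous weighted alike), where 0.0154% of all 12965 genes did. Most of the genes nevertheless stood higher in the null embryos. Their summed level was 15132, 17300, 11903 and 21505 CPM in null F1, F2, M1 and M2, 10456 and 12334 in the wild-type female and male, and 14188 and 13011 in the heterozygous female and male. Null M1 lay below both heterozygous embryos and the wild-type male, so the groups overlapped. Each embryo was also set against the mean of the others. The median log2 shift over the 46 genes was 0.08, 0.30, -0.24 and 0.49 in null F1, F2, M1 and M2. In that order 27, 37, 11 and 39 of the 46 stood higher. The shift lay between -0.46 and -0.05 in the embryos with Nanog. The log2 fold change was above 0 for 38 of 46 genes, against 47.2% of all genes tested, and its median was 0.34 against -0.05. All genes tested were not matched to the 46 for level. The part played by the genes that null embryos lacked was not tested. By edgeR's test 4 genes had an unadjusted p under 0.05, all higher in null, where 4.97% of all genes passed in either direction. DESeq2 and limma voom each called 0 of 46 after adjustment. The spread between embryos is wide, with a biological coefficient of variation of 0.979 over all genes in the fit.

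Psmc6, the ATPase gene with the smallest p, measured 543, 684, 303 and 786 CPM in null F1, F2, M1 and M2, 249 and 276 in the wild-type embryos and 398 and 331 in the heterozygous. Null M1 fell among the embryos with Nanog. The log2 fold change was 0.90 (SE 0.30, edgeR adjusted p = 0.931, unadjusted 0.0137). Psma2 was at 348, 472, 349 and 721 in null and 239 to 329 in the others, with no overlap (log2 0.70, SE 0.28, edgeR adjusted p = 0.931). Psmb3 did not overlap either, at 500 to 897 against 375 to 463 (log2 0.58, SE 0.25, edgeR adjusted p = 0.931). Groups were apart in this direction for 3 of 46 genes, against 1.64% of all genes, and in the other for Psma8 alone of the 46, against 3.57%. For Psma8 the heterozygous female had only 1 count. Psma5 (log2 0.64, SE 0.28), Psma6 (0.77, SE 0.36), Psma7 (0.69, SE 0.32) and Psma4 (0.53, SE 0.27) had the next smallest p among genes above 0. The highest value of each of these 7 genes was in null M2, which lacked the most genes, and the shift of that embryo against the others was 0.49 over the proteasome genes and -0.29 over all genes.

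**Figure D5:**
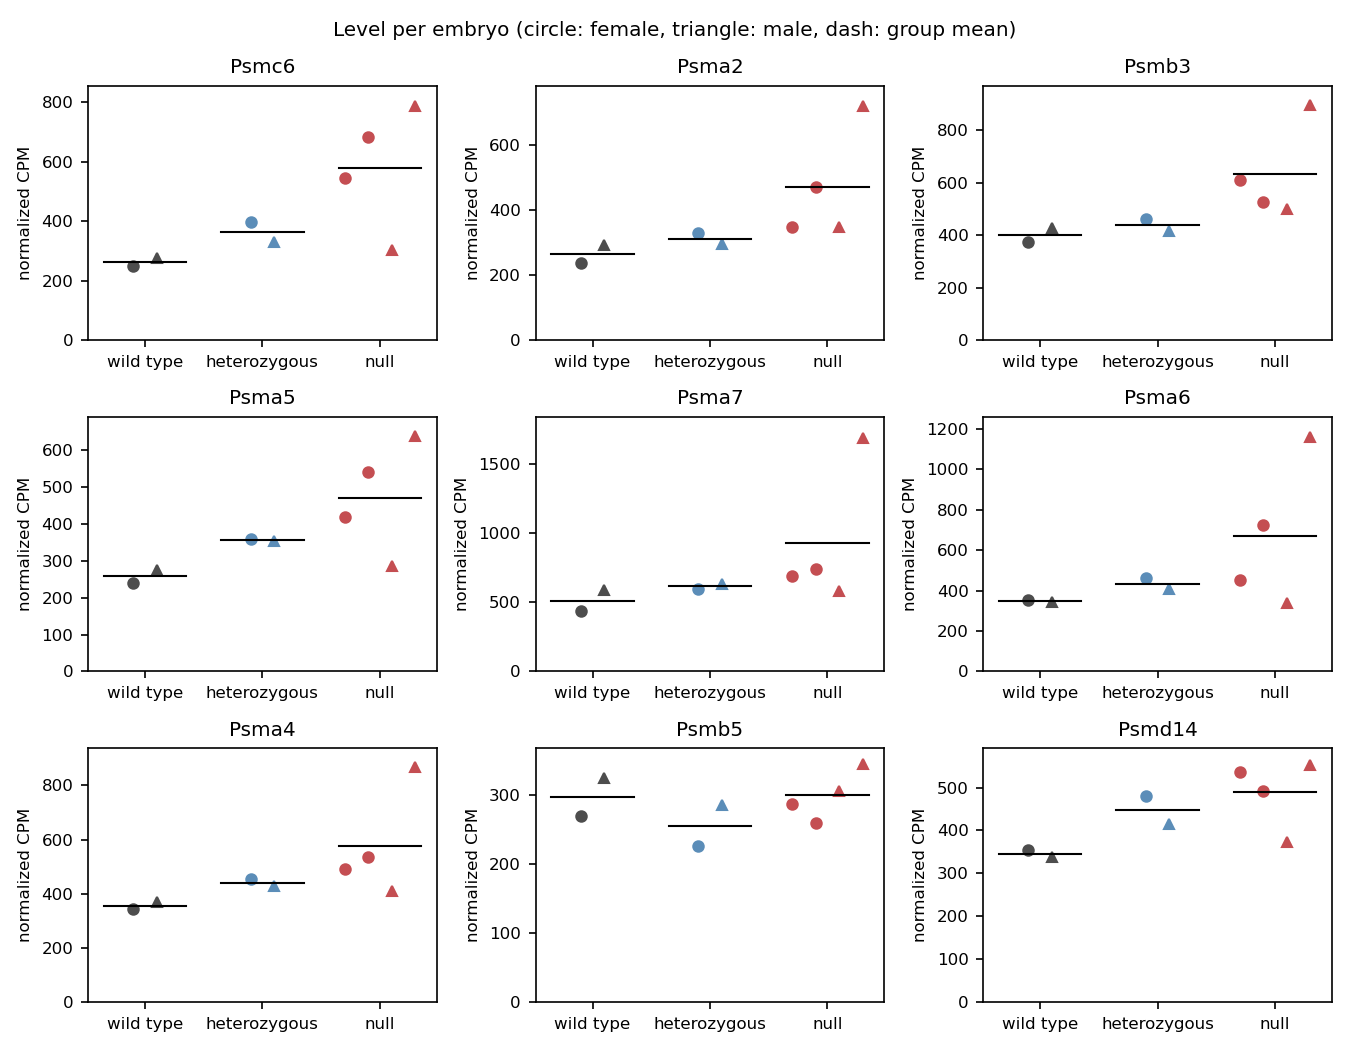
Normalized CPM (y axis, from 0) of 9 proteasome genes in wild-type, heterozygous and null embryos, with circles for females, triangles for males and a dash for the group mean. Null M2 is the highest embryo in each panel, and null M1 lies near the embryos with Nanog in most.

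By role, the median log2 fold change of null against Nanog-bearing embryos was 0.61 over the 8 alpha genes (7 above 0), 0.43 over 8 beta genes (8 above 0), 0.35 over the 6 ATPases (6) and 0.33 over the 8 lid genes (8). It was 0.05 over the 3 non-ATPase base genes (3) and 0.39 over the 3 base chaperones (2), and the inhibitor Psmf1 stood at 0.51. The 4 core chaperones had a median of -0.18 (1 above 0) and the 4 activators one of -0.03 (2). The differences between these roles were not tested. Without null embryos F1 and M2, which lacked the most genes, the median over the 46 was 0.21, and without M2 alone 0.20. Psma8 ran the other way, with 0 counts in the 4 null embryos, 44 and 17 in the wild-type and heterozygous males and 3 and 1 in the females. Pooled over the embryos with Nanog, the level was at least 17.9-fold higher, taking 3 counts over the null group as the limit (fitted log2 -6.20, SE 2.64, edgeR adjusted p = 0.931). That fold rests mainly on the males. The wild-type and heterozygous females stood at 0.121 and 0.0428 CPM, where the null limit was 0.0387. The other genes of the pathway had a median of 0.03, with 16 of 31 above 0 and 0 called. Nfe2l1 was at 92.4, 30.4, 111 and 11.7 in null F1, F2, M1 and M2 and at 48.2 to 77.2 in the others. Null F2 and M2, the embryos with the highest summed proteasome level, had the lowest Nfe2l1 of the 8.

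The remaining embryo comparisons called 0 of 46 genes by edgeR, DESeq2 and limma voom alike. Null against wild type, where 0.0154% of all genes were called, had 3 genes with an unadjusted p under 0.05, namely Psmc6 (log2 1.13, SE 0.39), Psma5 (0.87, SE 0.35) and Psma2 (0.82, SE 0.35), where 3.86% of all genes had one. The log2 fold change was above 0 for 39 of 46 (45% of all genes) with a median of 0.44, and all null embryos lay above both wild-type embryos for 13 genes (4.84% of all genes). Null against heterozygous, where 0.00771% of all genes were called, had 0 such genes (2.75% of all genes), 35 of 46 above 0 (47.7%) and a median of 0.28, with Psma8 (log2 -5.88, SE 2.74), Psmc6 (0.67, SE 0.38) and Psmd5 (0.88, SE 0.53) at the smallest p. These comparisons share the null embryos. Heterozygous embryos stood above wild type for 40 of 46 genes, against 48.5% of all genes, with a median of 0.23. The 2 heterozygous embryos lay above both wild-type embryos for 21 genes, against 16.3% of all genes. By edgeR 0 of the 46 had an unadjusted p under 0.05, against 0.825% of all genes, and 0% of all genes were called. The smallest p were those of Psmg1 (log2 -0.97, SE 0.57), Psmc1 (0.50, SE 0.32) and Psmd5 (-0.82, SE 0.59).

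Between female and male embryos, where 0.00771% of all genes were called, 0 of 46 genes had an unadjusted p under 0.05, against 2.95% of all genes. The log2 fold change of female against male was above 0 for 16 of 46 (46.9% of all genes), with a median of -0.12 against -0.05. Without null M2, a male, that median was 0.09. Psmc3ip (log2 0.99, SE 0.49), Psmd3 (-0.63, SE 0.33) and Psmd5 (-0.71, SE 0.42) had the smallest p. Psmd10, the X-linked member, stood at 41.9, 83.0, 49.3 and 41.3 CPM in the females and 56.5, 31.5, 36.8 and 21.0 in the males (log2 0.57, SE 0.42, edgeR adjusted p = 0.999), and the sexes overlapped. The test of whether the null difference depends on sex also gave 0 of 46 genes, adjusted or at an unadjusted p under 0.05, by edgeR, where 0% and 3.96% of all genes passed, and 0 after adjustment by DESeq2 and limma voom. That term was above 0 for 26 of 46 genes (48.1% of all genes).

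Spread within a group was smaller for proteasome genes than for genes at large. The median coefficient of variation between embryos with Nanog was 16.9% over the 46 genes and 36.2% over all genes tested, and between null embryos 30.0% and 67.9%. These medians are not matched for level, and highly expressed genes vary less by counting alone. None of the 47 genes is among the 78 genes of the authors' deposited table of Nanog-regulated genes, of which 7 are listed UP and 71 DOWN.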

How the data were processed

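RNA-seq counts per gene were deposited by the authors for 8 embryos and 14 line libraries. The submitters' processing notes name build mm9, edgeR and TopHat 1.3.1. The sources used here do not give the counting program, annotation or strand setting. Per the labels' protocols, embryo cDNA was amplified before library preparation. The table's 22 further value columns were not used.

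From these counts, genes passing filterByExpr were scaled by TMM and tested with edgeR 4.0.16 (robust quasi-likelihood, R 4.3.3), with p-values adjusted by Benjamini-Hochberg over all genes tested and a threshold of 0.05. Embryos were fitted by genotype and sex. The 2 libraries of a line were summed and 7 lines fitted by lineage. A mean ± SD is over embryos or lines. P-values measure only the spread between these embryos and lines, and exact binomial intervals and limits from 3 counts cover counting error only. Alternatives used DESeq2 1.42.0, limma 3.58.1 (voom), other scaling, no filter, single libraries and samples left out. The tests were tried on simulated counts with less spread between samples than these data have. That trial does not show which changes the tests can find here. Genes named are those called, or the smallest p-values where none was, beside genes of known role. The members and lists were chosen with earlier results of these data known. The authors' deposited table of regulated genes was only searched for members. Its fold values were not used. Shared 31-base words and transcript lengths come from GENCODE M21, of another build than the counts.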

Additional observations from a re-analysis of the deposited data

Results flagged for a closer look

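In 133 groups of 4 to 10 libraries examined for genes described here, 9 values stood apart from the rest of their group by Dixon's criterion, which flags about 1 group in 20 by chance. Library XEN M2_r2 held 6 of them, each the highest of the 4 XEN libraries: Psma2 at 183 CPM, Psma5 at 277, Psma6 at 272, Psmb10 at 29.2, Psmd10 at 38.8 and Psmd11 at 154. Null embryo M2 was the highest of the 4 null embryos for Psma7, at 1691 CPM, and for Psmb6, at 965. Null embryo M1 was the lowest for Psmg2, a core assembly chaperone, at 73.9.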

How the results depend on the processing

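Each embryo comparison gave 0 called proteasome genes in every alternative run. For the line comparisons, the counts below stand without the share of all genes called in the same alternative. They therefore do not compare proteasome genes with genes at large. Between ES and TS lines, where 8 genes were called, DESeq2 called 14, limma voom 18 and library 2 of each line alone 4. Leaving out 1 line at a time gave 1 to 9. Between ES and XEN lines, with 8 called, library 1 of each line alone gave 5 and library 2 alone 3, and leaving out 1 line gave 1 to 12. Between TS and XEN lines, with 7 called, library 2 alone gave 4 and leaving out 1 line 4 to 8. Samples left out because they stood apart (XEN M2_r2, TS F2_r1, null F1 and M2) were chosen after seeing the data. A tally was made of the alternative values of the genes called, or with the smallest p, in each comparison. Psmb10 was added to it for ES against TS and TS against XEN, though not called there with all libraries. In the tally, 591 values kept their direction and side of the threshold, 102 were no longer past it and 0 changed sign. The 9 that passed it newly were all of Psmb10, the gene added. Other genes that passed newly were not added. Among them are Psmb3 and Psme3 in ES against TS, and Psmd12 and Psmb6 in TS against XEN. A fit with the library number as a replicate block over unsummed libraries called 13, 9 and 8 genes in those 3 comparisons. The numbers were not taken as pairing the lines, since only 3 of 21 line pairs deviated together with a correlation over 0.1 (range -0.43 to 0.19). Depth limits Psma8 and Psmb11, which rest on few counts in most groups.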
